A study of Homo sapiens with 3 samples.

Results

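hsa-miR-103a-3p and hsa-miR-107 are a pair of near-identical microRNAs (miRNAs, short RNAs that guide the silencing of mRNAs). They were followed here across strains of HCCLM3, a human hepatocellular carcinoma cell line obtained from metastatic xenografts. Every listed name that begins with hsa-miR-103a, hsa-miR-103b or hsa-miR-107 was taken, whatever its copy number or arm, which gave 4 of the 1921 names in the count tables. The remaining members were hsa-miR-103a-2-5p, the passenger strand of a miR-103a hairpin, and hsa-miR-103b, which is annotated on the opposite DNA strand. The strains were the parent, labelled as having low metastasis, subclone1, labelled with a raised ability to reach the lung, and subclone2, labelled as reaching both the lung and the celiac lymph node. All were grown in DMEM without further treatment. The study's text calls its parental line, a derivative of HCCLM3 carrying red fluorescent protein, highly metastatic, so the word low is used only as the label of this library. The study derived its subclones from lung and lymph node metastases of that line in nude mice, each grown from a lone cell, but the labels do not say which of them are subclone1 and subclone2. Each strain had 1 library, so no difference below has a replicate check, no p-value is given, and all intervals are 95% intervals that cover counting error only.

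miR-103 and miR-107 are made from introns of the pantothenate kinase (PANK) genes, whose enzymes open the synthesis of coenzyme A. They repress DICER1, the enzyme that cuts miRNAs from their precursors, and CAV1, through which they affect insulin sensitivity in liver and fat. miR-103 is also used as a reference in miRNA PCR assays. A miRNA finds its targets mainly through its seed, bases 2 to 8 counted from the 5′ end. The mature sequences of the members are shown 5′ to 3′ with the seed in capitals, from RefSeq (GRCh38.p14), since the members differ so little that the sequences decide what the counts can tell apart.
hsa-miR-103a-3p: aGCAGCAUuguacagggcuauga
hsa-miR-107: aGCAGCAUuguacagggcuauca
hsa-miR-103a-2-5p: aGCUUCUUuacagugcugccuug
hsa-miR-103b: uCAUAGCCcuguacaaugcugcu

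Both leading members are 23 bases long and differ at 1 position, G22C, where the first letter is the base of hsa-miR-103a-3p, the number is counted from the 5′ end and the last letter is the base of hsa-miR-107. Their first 21 bases are the same. The seed GCAGCAU, whose perfect match in a target reads AUGCUGC, is carried by these 2 alone among 2370 mature human miRNA names in RefSeq. A read that ends before base 22 therefore fits both names, and how such reads were counted is not given in the sources used here. The division of reads between the pair is uncertain for this reason. Among the 717 detected names with a RefSeq sequence, 2 pairs with unequal sequences shared their first 21 bases, this pair and hsa-miR-548ah-3p with hsa-miR-548am-3p. Where RefSeq gives exactly the same sequence to a pair of detected names, their counts were equal in all libraries in 7 of 9 pairs. Some of these pairs have a name in common, and several had counts of 5 or fewer. The counts of hsa-miR-103a-3p and hsa-miR-107 were not equal in any library, which does not show how reads that fit both were counted.

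hsa-miR-103a-3p comes from 2 hairpins and hsa-miR-107 from 1. The hairpins are shown with the mature strand in capitals, because they show which parts of the precursors are kept. The mature strand and the stretch of the passenger strand are nearly the same across the hairpins, while the rest varies more.
MIR103A1: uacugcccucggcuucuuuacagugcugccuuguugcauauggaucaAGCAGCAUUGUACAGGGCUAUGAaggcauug
MIR103A2: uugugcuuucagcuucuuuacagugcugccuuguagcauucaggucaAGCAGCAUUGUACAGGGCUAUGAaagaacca
MIR107: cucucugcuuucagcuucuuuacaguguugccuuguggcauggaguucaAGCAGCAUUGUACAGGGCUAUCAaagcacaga

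MIR103A1 (ENSG00000199035.2) lies at chr5:168560896-168560973 on the minus strand, inside PANK3. MIR103A2 (ENSG00000199024.1) lies at chr20:3917494-3917571 on the plus strand, inside PANK2. MIR107 (ENSG00000198997.2) lies at chr10:89592747-89592827 on the minus strand, inside PANK1. These positions are on GRCh38, and the count tables carry no coordinates. In GENCODE release 29 each hairpin lies in intron 5 of 6 of the principal transcript of its host, on the strand of the host, and overlaps 0 exons of it. Over their whole length the hairpins were 81.2% identical between MIR103A1 and MIR103A2, 79.5% between MIR103A1 and MIR107, and 85.2% between MIR103A2 and MIR107. The MIR103A2 hairpin is thus closer to MIR107 than to the hairpin that gives the same mature strand. The counts cannot tell the MIR103A1 and MIR103A2 products apart, because their 3p strands are the same molecule.

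The parent library held 7902438 counts in total, that of subclone1 3570864 and that of subclone2 4568075. Levels are given as counts per 1000000 of that total (CPM). These are bulk libraries, in which fewer cells of a kind and less RNA per cell cannot be told apart. As a check of the label, the hepatocyte miRNA hsa-miR-122-5p had 53 counts in the parent library and 19 and 18 in those of subclone1 and subclone2. These are 6.71, 5.32 and 3.94 CPM. hsa-miR-885-5p had 0 in every library, where 3 counts, the limit set for a 0, would be 0.380, 0.840 and 0.657 CPM. Both hepatocyte markers were thus absent or nearly so, and the check lends the label no support. The 12 markers of blood, endothelial, mesenchymal and muscle cells summed to 9.36, 25.8 and 9.85 CPM, with 2 of them, hsa-miR-142-3p and hsa-miR-144-3p, at 0 throughout. Most of that sum was hsa-miR-1, a muscle miRNA, with 6.71, 21.6 and 7.01 CPM. Scaled to the library total it was highest in subclone1, where both leading members were highest too, and its part in the results was not tested.

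Both leading members were abundant in every strain. hsa-miR-103a-3p had 111266 counts in the parent library, 56680 in that of subclone1 and 59975 in that of subclone2. The levels were 14080 CPM (13998 to 14162), 15873 CPM (15744 to 16003) and 13129 CPM (13025 to 13234) in that order of libraries. It held the same place, 13, in the order of counts in all libraries. hsa-miR-107 had 64054, 32399 and 36264 counts in the same order. Its levels were 8106 CPM (8043 to 8168), 9073 (8975 to 9172) and 7939 (7857 to 8020), and its place was 17 in all libraries. For both, subclone1 was the highest library and subclone2 the lowest, and no counting intervals overlapped between libraries. This order is that of the library total. It was the same for hsa-miR-103a-3p with the total without the 10 most abundant miRNAs, but under TMM and median-of-ratios scaling subclone2 lay above the parent for both members, and for hsa-miR-107 also above subclone1. For hsa-miR-107 subclone2 lay above the parent without the 10 most abundant miRNAs as well. That total leaves out the 10 most abundant of each library, 12 names together.

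**Figure D1:**
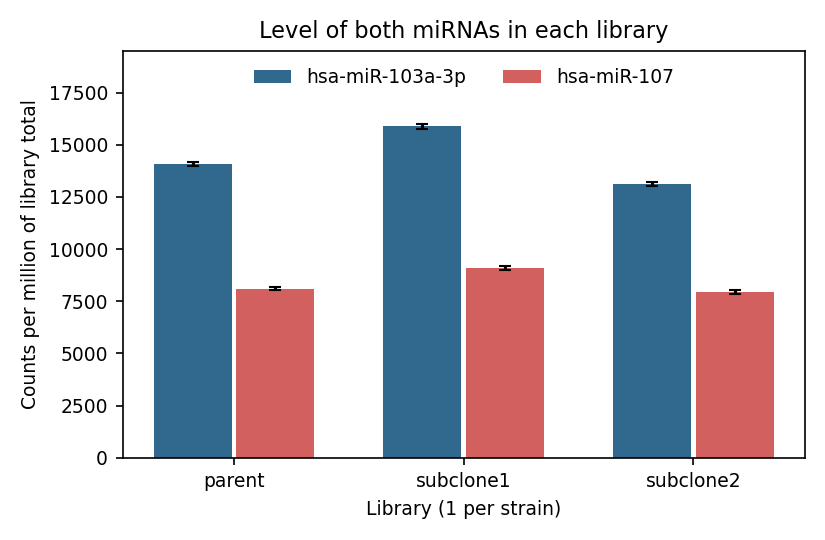
Level of hsa-miR-103a-3p and hsa-miR-107 in CPM (vertical axis, from 0) in each library (horizontal axis). Bars are the value of 1 library each and error bars are exact 95% binomial intervals. hsa-miR-103a-3p ranged from 13129 to 15873 CPM and hsa-miR-107 from 7939 to 9073 CPM, and both were highest in subclone1 on this scale. For hsa-miR-107 that order turned under TMM and median-of-ratios scaling.

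The names around them changed more than their own place did. Just above hsa-miR-103a-3p stood hsa-miR-29a-3p and hsa-miR-192-5p in the parent, hsa-let-7c and hsa-let-7g-5p in subclone1, and hsa-miR-29a-3p and hsa-miR-221-3p in subclone2. Just below it were hsa-miR-423-5p and hsa-let-7e-5p in every library, in either order. hsa-miR-107 was flanked by hsa-let-7d-5p and hsa-miR-140-3p in all libraries, and the next name down was hsa-miR-191-5p in the parent and hsa-miR-185-5p in the subclones. The counting intervals of a member and a direct neighbour overlapped in 3 places. In subclone2 they did so for hsa-miR-103a-3p and hsa-let-7e-5p (12995 CPM, 12891 to 13099) and for hsa-miR-107 and hsa-let-7d-5p (7778 CPM, 7698 to 7859), and in subclone1 for hsa-miR-107 and hsa-miR-140-3p (9232 CPM, 9133 to 9332). Levels of different miRNAs carry the bias of adapter ligation, so these places describe read counts only.

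The share of all counts held by the members together was 2.22% for the parent library (2.21 to 2.23), 2.49% for subclone1 (2.48 to 2.51) and 2.11% for subclone2 (2.09 to 2.12). Nearly all of this was the 3p strands. The passenger hsa-miR-103a-2-5p had 4 counts in the parent library, 2 in that of subclone1 and 5 in that of subclone2. Of the counts of both strands this was 0.00359% (0.000979 to 0.00920), 0.00353% (0.000427 to 0.0127) and 0.00834% (0.00271 to 0.0195) in that order. These intervals overlapped, so no difference in this share was detectable at this depth. The share sets a passenger strand named for MIR103A2 against a 3p strand that MIR103A1 gives too, so it is not the arm use of either hairpin. From the 5p strand annotated for MIR103A1, which has no name in the count tables, to hsa-miR-103a-2-5p the change is G1A. From hsa-miR-103a-2-5p to the matching stretch of the MIR107 hairpin the change is C16U. Which hairpin gave these few reads is therefore unsure. hsa-miR-103b, whose 23 bases are the reverse complement of hsa-miR-103a-3p, had 0 counts in all libraries, with the same upper limits as hsa-miR-885-5p.

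To ask whether the pair differed between the strains of unlike tropism, each subclone was compared with the parent and with the other. A miRNA was called when its scaled counts differed at least 2-fold and its interval excluded 1, and names that averaged 10 CPM or more over both libraries of a contrast were kept. Neither member was called in any contrast. In subclone1 against the parent, hsa-miR-103a-3p was 1.13-fold higher (log2 ratio 0.17, interval 0.16 to 0.19) and hsa-miR-107 1.12-fold higher (0.16, 0.14 to 0.18). Among all miRNAs the background was 25 of 192 kept miRNAs called, or 13%, and a median log2 ratio of 0.017. In subclone2 against the parent the log2 ratios were -0.10 (-0.12 to -0.087) for hsa-miR-103a-3p and -0.030 (-0.049 to -0.011) for hsa-miR-107. There 20 of 187 were called, or 10.7%, and the median was -0.15. In subclone2 against subclone1 they were -0.27 (-0.29 to -0.26) and -0.19 (-0.21 to -0.17), beside 11 of 191 called, or 5.76%, and a median of -0.17.

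These intervals all excluded 0. So did the intervals of 132 of the 192 kept miRNAs in the first contrast (68.8%), 130 of the 187 in the second (69.5%) and 114 of the 191 in the third (59.7%). Without replicates it is unknown whether differences of this size exceed the spread between cultures. In subclone1, 55 kept miRNAs had a smaller absolute log2 ratio than hsa-miR-103a-3p and 53 a smaller one than hsa-miR-107. In subclone2 these numbers were 37 and 14. These numbers use the library total and were not counted under the other scalings, which moved the log2 ratios of both members. Both ratios against the parent use the same parent library.

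**Figure D2:**
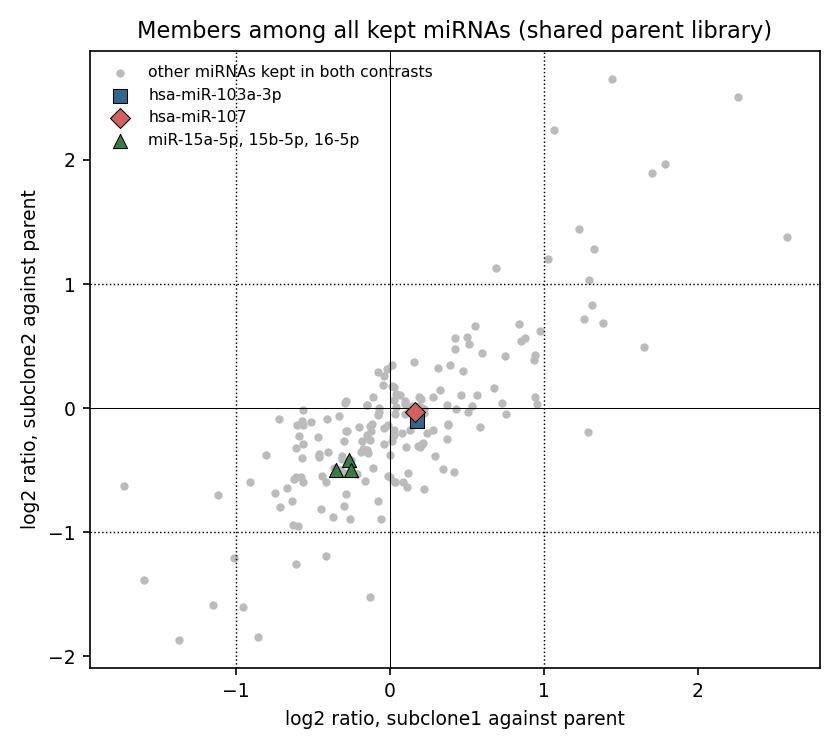
log2 ratio of subclone1 (horizontal axis) and of subclone2 (vertical axis) against the parent for the 185 miRNAs kept in both contrasts, with dotted lines at 2-fold. Each point is 1 miRNA. hsa-miR-103a-3p (0.17 and -0.10) and hsa-miR-107 (0.16 and -0.030) lie near the centre, and miR-15a-5p, miR-15b-5p and miR-16-5p lie to the lower left of them. Both axes share the parent library and use the library total, under which both members have a negative sign in subclone2 that turned with TMM and median-of-ratios scaling.

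The direction in subclone2 depended on the scaling. With TMM factors, which trim miRNAs of extreme ratio before scaling, the log2 ratio in subclone2 was 0.070 for hsa-miR-103a-3p and 0.14 for hsa-miR-107. In subclone1 both stayed above the parent under all 4 scalings tried, at 0.10 to 0.17 for hsa-miR-103a-3p and 0.091 to 0.16 for hsa-miR-107. A measure that no scaling factor changes is the log2 ratio minus the median of the kept miRNAs. It was 0.16 in subclone1 and 0.053 in subclone2 for hsa-miR-103a-3p, and 0.15 and 0.12 for hsa-miR-107. No direction is drawn for subclone2 beyond this position.

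**Figure D3:**
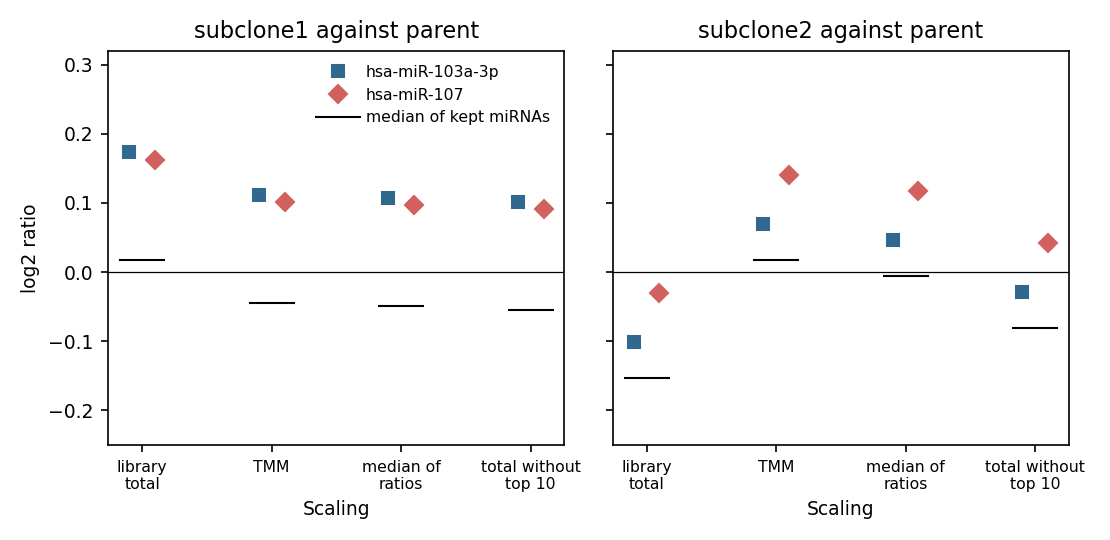
log2 ratio (vertical axis) of hsa-miR-103a-3p and hsa-miR-107 under 4 scalings (horizontal axis), for subclone1 against the parent on the left and subclone2 against the parent on the right, with the median of the kept miRNAs as a bar. Each point compares 2 libraries. In subclone1 all points lie above 0, in subclone2 they run from -0.10 to 0.14, and both members lie above the bar throughout.

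The highest library stood 1.21-fold above the lowest for hsa-miR-103a-3p and 1.14-fold for hsa-miR-107. The median of this ratio was 1.45 over 192 miRNAs that averaged 10 CPM or more across the 3 libraries and 1.26 over the 34 that averaged 1000 CPM or more. Ordered from the least to the most variable, hsa-miR-103a-3p was number 13 and hsa-miR-107 number 10 of those 34. Under TMM scaling the ratios were 1.08 and 1.10 and the places 1 and 3. The pair thus belonged to the less variable abundant miRNAs of these libraries, by an amount that depended on the scaling.

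The ratio of the pair needs no scaling. Per read of hsa-miR-103a-3p the parent library had 0.576 reads of hsa-miR-107 (0.570 to 0.581), subclone1 had 0.572 (0.564 to 0.579) and subclone2 had 0.605 (0.597 to 0.613). The parent and subclone1 overlapped and subclone2 lay above both. Between subclone1 and the parent the ratio changed by a factor of 0.993 (0.976 to 1.01). Between subclone2 and the parent it rose by a factor of 1.05 (1.03 to 1.07), and between the subclones by 1.06 (1.04 to 1.08). The interval for subclone2 against the parent excluded 1, as did those of 15 of 21 other pairs of related miRNAs described below, so a shift of 5.03% beyond counting error does not set this pair apart, and there is no replicate to set it against.

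**Figure D4:**
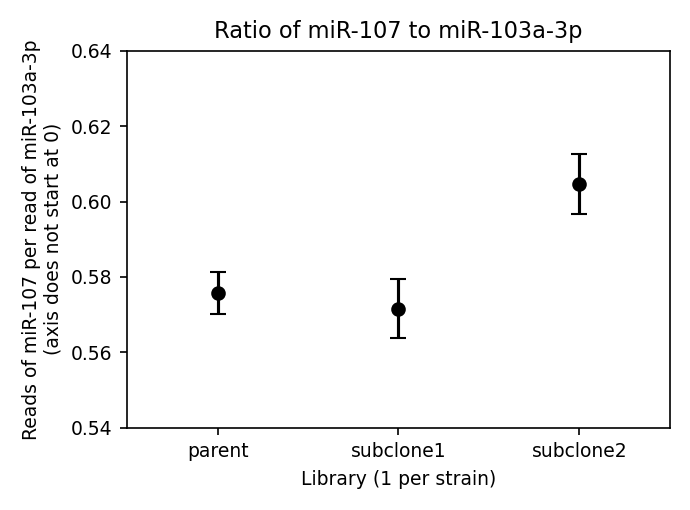
Reads of hsa-miR-107 per read of hsa-miR-103a-3p (vertical axis, which does not start at 0) in each library (horizontal axis). Points are 1 library each and bars are exact 95% intervals. The parent (0.576) and subclone1 (0.572) overlap and subclone2 (0.605) lies above them.

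This ratio was set beside those of 21 other pairs of related miRNAs in which both names averaged 10 CPM or more. In subclone1 against the parent, the pair of hsa-miR-107 and hsa-miR-103a-3p had the smallest change of the 22 (log2 -0.010). hsa-let-7a-5p to hsa-let-7c (0.040) and hsa-miR-200b-3p to hsa-miR-200c-3p (0.042, -0.48 to 0.56) followed. In subclone2 it was number 6, and the smallest changes were those of hsa-miR-151a-3p to hsa-miR-28-3p (-0.0082), hsa-miR-98 to hsa-let-7i-5p (0.027) and hsa-miR-181a-5p to hsa-miR-181b-5p (-0.040). The median absolute log2 change of the other pairs was 0.22 in subclone1 and 0.23 in subclone2. Of the 21, the interval excluded 1 for 16 pairs when subclone1 was set against the parent, for 15 pairs with subclone2, and for 13 pairs when the subclones were compared. In each subclone 1 of the 21 moved at least 2-fold, hsa-miR-146a-5p to hsa-miR-146b-5p (1.48 and 3.44). It was followed by hsa-miR-30a-5p to hsa-miR-30d-5p (0.78) and hsa-miR-25-3p to hsa-miR-92a-3p (0.59) in subclone1, and by hsa-miR-192-5p to hsa-miR-215 (-0.76) and hsa-miR-17-5p to hsa-miR-20a-5p (0.66) in subclone2. The names within such pairs resemble each other too, to a degree that was not measured here. Among detected names with a RefSeq sequence, none of the other pairs here shared its first 21 bases. That length is the run shared by hsa-miR-103a-3p and hsa-miR-107, so this pair meets it by construction. Pairs that first differ at an earlier base fall short of it, and names without a RefSeq sequence of that exact name were not compared. How far reads that fit both names concern each pair is not known. The small change of this pair cannot be taken as like for like with the others. The counting of such reads is not given, and their part in this ratio was not tested.

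**Figure D5:**
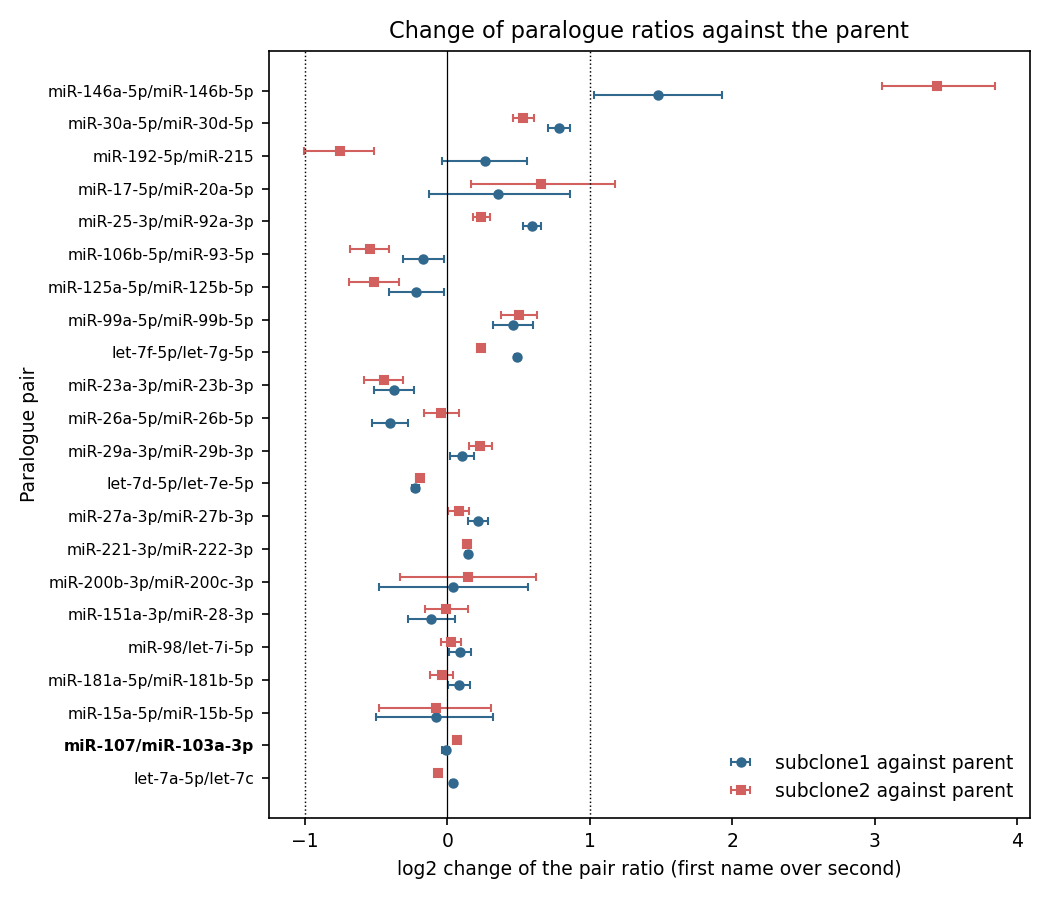
log2 change of the ratio within 22 pairs of related miRNAs (horizontal axis, dotted lines at 2-fold) for each subclone against the parent, with exact 95% intervals that cover counting error only. Each row is 1 pair. miR-107/miR-103a-3p (-0.010 and 0.071) is the second row from the bottom, and miR-146a-5p/miR-146b-5p (1.48 and 3.44) is at the top.

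miR-103 and miR-107 belong with miR-15, miR-16 and their relatives to the miR-15/miR-107 group, whose members carry nearly the same 5′ bases and share some targets among cell cycle regulators. The kept relatives are shown with the seed in capitals, which shows the offset between the families.
hsa-miR-15a-5p: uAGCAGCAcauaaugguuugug
hsa-miR-15b-5p: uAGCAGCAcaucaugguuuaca
hsa-miR-16-5p: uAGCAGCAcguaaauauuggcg

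Their seed AGCAGCA equals bases 1 to 7 of hsa-miR-103a-3p and hsa-miR-107, so the families are offset by 1 base and the longest shared run is 7 bases. Of 8 listed relatives, 3 averaged 10 CPM or more. In the parent hsa-miR-16-5p had 314 CPM (301 to 326), against 262 (246 to 280) in subclone1 and 221 (208 to 235) in subclone2. hsa-miR-15b-5p had 129, 106.7 and 96.3 CPM. hsa-miR-15a-5p had 29.7, 23.2 and 21.02 CPM. On this scale all 3 were highest in the parent and lowest in subclone2, a different order from that of hsa-miR-103a-3p and hsa-miR-107. They stayed below the parent in both subclones under all 4 scalings, while the order of the subclones turned for hsa-miR-15a-5p and hsa-miR-15b-5p with TMM factors (subclone2 against subclone1, log2 0.086 and 0.085). hsa-miR-497-5p had 36, 19 and 14 counts (4.56, 5.32 and 3.06 CPM) and hsa-miR-195-5p 13, 6 and 11 (1.65, 1.68 and 2.41 CPM). Neither was highest in the parent in CPM, and their counting intervals overlapped between libraries. hsa-miR-503 had 1, 2 and 0 counts. hsa-miR-424-5p and hsa-miR-646 had 0 counts in all libraries.

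None of the 3 kept relatives was called in any contrast. Of all kept miRNAs 13% were called in subclone1, 10.7% in subclone2 and 5.76% between the subclones, so 0 of 3 does not set them apart. Their median log2 ratio was -0.27 in subclone1 (all kept miRNAs 0.017) and -0.50 in subclone2 (all kept -0.15). hsa-miR-16-5p had log2 ratios of -0.26 (-0.37 to -0.15) and -0.50 (-0.61 to -0.40) in these contrasts, hsa-miR-15b-5p -0.27 (-0.44 to -0.099) and -0.42 (-0.58 to -0.26). The interval of hsa-miR-15a-5p in subclone1 (-0.73 to 0.011) included 0. Per read of the 8 relatives together, the pair of hsa-miR-103a-3p and hsa-miR-107 had 46.4 reads in the parent library, 62.4 in that of subclone1 and 61.2 in that of subclone2. This ratio, free of scaling, was 1.35-fold higher in subclone1 (1.265 to 1.432) and 1.32-fold higher in subclone2 (1.244 to 1.402) than in the parent, which both share. Between the subclones it changed by a factor of 0.981 (0.912 to 1.06). Of the read counts of the whole group the pair made up 97.9% (97.8 to 98.0) for the parent library and 98.4% (98.3 to 98.5) for either subclone.

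The miRNAs with the most similar pattern were named by the distance between their log2 ratios of both subclones against the parent, over 3 libraries and 191 other miRNAs. For hsa-miR-103a-3p the nearest was hsa-miR-107 (distance 0.072), followed by hsa-miR-22-3p (0.076), hsa-miR-625-5p (0.090), hsa-miR-423-5p (0.094) and hsa-miR-1301 (0.10). The median distance was 0.56. For hsa-miR-107 the nearest were hsa-miR-24-3p (0.051), hsa-miR-1301 (0.051), hsa-miR-29c-3p (0.052), hsa-miR-29a-3p (0.053) and hsa-miR-22-3p (0.058), and hsa-miR-103a-3p was number 8. With 3 libraries and log2 ratios near 0, many miRNAs lie about as close. Counting error of the rarer names exceeds these distances. The interval of hsa-miR-625-5p ran from -0.37 to 0.60 in subclone1 and from -0.67 to 0.29 in subclone2. The part of reads that fit both names in the place of hsa-miR-107 was not tested.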

How the data were processed

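Small RNA was sequenced from cultured cells of 3 HCCLM3 strains, 1 library each, prepared with the Illumina TruSeq Small RNA kit from 1 ug of total RNA. The authors deposited raw read counts per mature miRNA name. The submitters' processing notes name CASAVA 1.4 and hg19 with no role. Read trimming, aligner, mismatches, miRBase release and the counting of shared reads are not given in the sources used here.

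CPM values divide each count by the sum of its table, so that 10 CPM stood for 79.0, 35.7 and 45.7 counts in the parent, subclone1 and subclone2. The limit for a marker with a count of 0 is 3 counts, which lies below the upper end of the exact interval. Shares carry exact binomial (Clopper-Pearson) intervals. log2 ratios had 0.5 counts added and exact conditional binomial intervals, and changes of a ratio had exact conditional intervals of the odds ratio. The reads carry no molecular identifiers here. With 1 library per group no test was possible. Named miRNAs are the members, their kept relatives, 2 rank neighbours on each side, the 5 nearest patterns, and the 3 pairs with the largest and the 3 with the smallest change. Listed relatives below the minimum and markers are named as list members, and hsa-miR-548ah-3p and hsa-miR-548am-3p were named after their sequences were compared. Members and lists were chosen with earlier results of these data known. Alternatives were other minimum levels, fold thresholds and pseudocounts, summed names, and other scalings. The scalings were TMM (edgeR 4.0.16), median of ratios, and the total without the 10 most abundant miRNAs. The last left out the 10 most abundant of each library, 12 names together. Scripts (Python 3.11.15, scipy 1.17.1) were tested on simulated data. Sequences and hairpin positions are from RefSeq (GRCh38.p14), introns from GENCODE release 29.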

Additional observations from a re-analysis of the deposited data

Results flagged for a closer look

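Scaled to the library total, both leading members were higher than the parent in subclone1 and lower in subclone2. hsa-miR-103a-3p had log2 ratios of 0.17 in subclone1 and -0.10 in subclone2, and hsa-miR-107 had 0.16 and -0.030. The difference between the strains was not tested, because each strain has 1 library. The sign in subclone2 changed with the scaling. With TMM factors the log2 ratios there were 0.070 for hsa-miR-103a-3p and 0.14 for hsa-miR-107, and with median-of-ratios factors 0.046 and 0.12, so no opposite direction is drawn.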

How the results depend on the processing

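No paired analysis was possible because there is 1 library per strain. Leaving out a library was not done for the same reason. Neither member was called under any alternative. Scaling moved the log2 ratios by more than their counting intervals. With TMM factors, median-of-ratios factors and a total that omits the 10 most abundant miRNAs, hsa-miR-103a-3p had 0.11, 0.11 and 0.10 in subclone1 against the parent, 0.070, 0.046 and -0.029 in subclone2 against the parent, and for the comparison of subclones -0.041, -0.060 and -0.13. hsa-miR-107 had 0.10, 0.096 and 0.091, then 0.14, 0.12 and 0.042, and 0.040, 0.021 and -0.049. The sign in subclone2 against the parent thus turned with TMM and median-of-ratios factors for both, and with all 3 for hsa-miR-107, whose sign between the subclones also turned with the first 2. In subclone2 against the parent, the median over kept miRNAs went from -0.15 to 0.017 with TMM. Summed, the members had -0.075 in subclone2 against the parent, and -0.24 when subclone2 was set against subclone1. A pseudocount of 5, and adding the 5p strand or hsa-miR-103b to the ratio of the pair, changed no value beyond its interval.

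In subclone1, in subclone2 and between the subclones, 25 of 192, 20 of 187 and 11 of 191 kept miRNAs were called. These numbers were 56, 50 and 36 at 1.5-fold and 3, 3 and 1 at 4-fold. With a minimum of 100 CPM they were 7 of 91, 5 of 87 and 2 of 90. With no minimum they were 67 of 825, 75 of 827 and 33 of 780. The numbers change with these settings by construction. No member of the miR-15/miR-107 group was called under any alternative. Only 4 to 8 of them were kept, too few to set the group apart from this background. The number of other pairs that moved at least 2-fold (1, 1 and 2) was 0 in each contrast with a minimum of 100 CPM. It was 2 in subclone1 with a minimum of 1 CPM, 3 in both subclones against the parent at 1.5-fold, and 1 between the subclones with a pseudocount of 5. Depth limits the passenger strand and hsa-miR-103b, whose counts were 5 or fewer in each library, and not the leading members.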
